A study of Mus musculus with 2 samples.

Results

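The cells described here are aortic endothelial cells chosen by the transcripts of 6 genes: Adra2a, Sema3g, Igf2, Cyp4b1, Stmn2 and Gkn3 (panel B). A cell with over 200 genes, 1000 to 25000 unique molecular identifiers (UMIs, each 1 captured RNA molecule) and a mitochondrial share under 10% was taken as endothelial when Pecam1, Cdh5 and Egfl7 together had at least 3 UMIs and Ptprc, Pdgfra, Prox1 and Mmrn1 had none. It became a member when at least 2 panel B genes were detected and more of them than of a second panel, Isl1, Nkx2-3, Emcn, Bmp6, Clec1a and Cytl1 (panel A). The rule gave 294 members, 168 in aorta 1 and 126 in aorta 2, of 1477 gated endothelial cells and 11442 cells that passed the filter. Both panels and the gate were selected on measured values of these same cells, so levels of the 12 panel genes and the gate genes are a description, and so is every contrast between members and other endothelial cells.

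Endothelial cells line the lumen of the aorta, meet the flowing blood and control the tone, coagulation and permeability of the wall. Arterial endothelium is known for high Notch signaling, for the transcription factor Sox17 and for the connexins Gja4 and Gja5, whereas capillary endothelium of muscle and fat is known for fatty acid uptake through Cd36, Fabp4 and Gpihbp1. Angiogenic endothelium is known for vascular endothelial growth factor (VEGF) receptors, angiopoietins and Notch ligands of tip cells.

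Both thoracic aortas came from wild-type C57BL/6J males of the GFPiSMC line at 12 weeks of age (1 group, n = 2 aortas from 2 animals). In this line a tamoxifen-inducible Cre under the Myh11 promoter, active in smooth muscle cells (SMCs), turns the mT/mG reporter, a membrane fluorophore, from tdTomato into eGFP, and both animals received 1 mg/d of tamoxifen for 5 days from 3 weeks of age. After cold digestion, live singlets were collected by flow cytometry without regard to GFP, so all cells of the wall could enter. With 1 group there is no treated arm, and the comparisons run between cell groups of the same animals.

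All names of cell groups rest on marker genes. Members were set beside 4 other groups: 822 endothelial cells with at least 2 panel A genes and more of panel A than of panel B (panel A endothelial cells), 361 other gated endothelial cells, 3041 cells of an SMC gate (Myh11, Cnn1 and Lmod1) and 1457 cells of a fibroblast gate (Pdgfra, Dpt and Lum). Both of these gates leave out cells with any UMI of Pecam1, Cdh5 or Egfl7, whereas the endothelial gate keeps cells with UMIs of the SMC gate genes. Levels are given as CPM, the UMIs of a gene scaled to 1000000 UMIs of its group, aorta 1 first and aorta 2 second. The member sums held 757361 and 438505 UMIs, so that 3 UMIs, the limit a count of 0 allows, stand for 3.96 and 6.84 CPM.

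The promoters of Sema3g, Cyp4b1 and Gkn3 are shown as examples of the 6 panel B genes, because the rule rests on their transcripts. They are the 250 bases before the RefSeq transcription start (GRCm38.p6), 5′ to 3′ on the strand of the gene. Capitals mark CACCC (the core of a KLF motif, read here as GGGTG on the other strand) and ACAAT (the core of a SOX motif).
Sema3g, chr14:31217623-31217872, plus strand: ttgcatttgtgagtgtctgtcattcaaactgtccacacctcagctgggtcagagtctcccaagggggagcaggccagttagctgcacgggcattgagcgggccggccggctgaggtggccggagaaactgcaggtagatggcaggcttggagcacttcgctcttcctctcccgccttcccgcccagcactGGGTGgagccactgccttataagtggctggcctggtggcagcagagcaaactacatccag
Cyp4b1, chr4:115647722-115647971, minus strand: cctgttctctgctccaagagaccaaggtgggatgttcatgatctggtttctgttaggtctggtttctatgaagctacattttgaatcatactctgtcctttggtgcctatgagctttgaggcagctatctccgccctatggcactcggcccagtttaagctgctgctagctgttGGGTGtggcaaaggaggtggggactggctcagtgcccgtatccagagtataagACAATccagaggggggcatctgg
Gkn3, chr6:87388936-87389185, minus strand: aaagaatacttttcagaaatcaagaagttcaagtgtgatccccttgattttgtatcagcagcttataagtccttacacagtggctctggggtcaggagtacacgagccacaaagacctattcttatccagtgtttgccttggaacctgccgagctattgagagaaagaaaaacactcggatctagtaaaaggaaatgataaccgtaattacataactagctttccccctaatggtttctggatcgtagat
On both strands, CACCC occurred in 52.0% of 32851 RefSeq promoters of this length, ACAAT in 27.7%, TGGGAA (the core of an RBPJ motif) in 21.6% and CCGGAA (the core of an ETS motif) in 12.0%. Of the 8 panel B promoters in the table, which belong to 5 genes, 6 held CACCC, 3 held ACAAT, 3 held TGGGAA and none held CCGGAA. The letters are a description of these windows, and letters of different motifs overlapped at 1 place, in an Igf2 promoter.

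The 6 panel B genes lie on 6 chromosomes (GRCm38, GENCODE vM21). Sema3g (ENSMUSG00000021904, chr14:31217860-31230352, plus strand) encodes a secreted class 3 semaphorin of arterial endothelium. Adra2a (ENSMUSG00000033717, chr19:54044151-54048982, plus strand) encodes the α2A-adrenergic receptor. Igf2 (ENSMUSG00000048583, chr7:142650766-142666816, minus strand) encodes insulin-like growth factor 2, and its locus overlaps Igf2os on the opposite strand and Mir483 and Gm49394 on the same strand, so its UMIs are uncertain to that extent. Cyp4b1 (ENSMUSG00000028713, chr4:115624725-115647723, minus strand) encodes a cytochrome P450, Stmn2 (ENSMUSG00000027500, chr3:8509360-8561606, plus strand) a microtubule-binding stathmin best known from neurons, and Gkn3 (ENSMUSG00000030048, chr6:87383256-87388935, minus strand) a gastrokine known as an arterial endothelial transcript. No annotated gene overlaps the other five loci.

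The panel B genes differed in how well they set members apart. Sema3g had at least 1 UMI in 45.2% and 38.9% of members, in 4.58% and 4.94% of panel A endothelial cells and in 0% and 0.787% of lymphocyte-gate cells, which should lack it. Igf2 was detected in 65.5% and 50.8% of members against 7.09% and 4.16%, and Adra2a in 36.3% and 38.1% against 6.18% and 8.05%. Stmn2 reached 88.1% and 87.3% of members and still 26.3% and 24.9% of panel A endothelial cells. Cyp4b1 was detected in 35.1% and 39.7% of members against 16.7% and 11.7%. Gkn3 separated the groups least, with 72.6% and 79.4% against 59.95% and 55.1%. In lymphocyte-gate cells, a type that should lack both, Stmn2 was found in 1.17% and 0.394% and Gkn3 in 0.701% and 0.394%. Median depth was 4026 and 2915 UMIs in members, 4087 and 3670 in panel A endothelial cells and 4202 and 3871 in lymphocyte-gate cells, so depth was not higher in members.

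In levels, Stmn2 stood at 815 and 859.7 CPM in members and 163 and 143 in panel A endothelial cells. Gkn3 stood at 749 and 992 CPM against 576 and 543. Igf2 stood at 532 and 545 against 25.3 and 14.1, and Sema3g at 209.9 and 221 against 15.4 and 12.8. Cyp4b1 stood at 136 and 171 CPM against 63.01 and 46.5, and Adra2a at 186 and 244 against 26.3 and 36.7. In the SMC and fibroblast gates all 6 genes were low: the highest were Igf2, at 5.28 and 7.63 CPM in SMCs and 7.54 and 1.99 in fibroblasts, and Gkn3, at 4.37 and 3.49 in fibroblasts. Igf2 was found in 48 of 1783 and 42 of 1258 SMC gate cells, with up to 8 and 9 UMIs in a cell. Stmn2 and Cyp4b1 were not limited to blood endothelium, since the 102 cells of a lymphatic endothelial gate held 471 and 656 CPM of Stmn2 and 187 and 106 CPM of Cyp4b1. Sema3g had no UMI in those lymphatic cells, where 3 UMIs stand for 20.8 and 14.5 CPM.

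**Figure D1:**
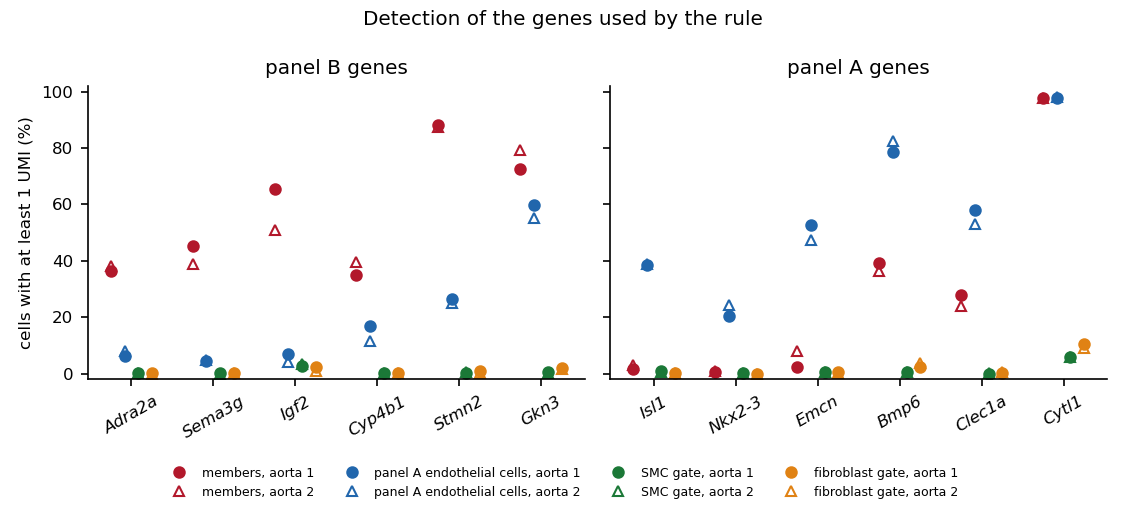
Percentage of cells with at least 1 UMI (vertical axis) for the 6 panel B genes (left) and the 6 panel A genes (right). Colors are cell groups, filled circles aorta 1 and open triangles aorta 2; in members Stmn2 reached 88.1% and 87.3%, Cytl1 lay near 100% in both endothelial groups, and SMC and fibroblast gate cells lay near 0 for every panel B gene.

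Within gated endothelium some pairs of panel B genes occurred together more often than others. Igf2 was found in 51.7% and 41.5% of the Sema3g-positive gated cells, against 21.3% and 13.8% of all gated cells. Cyp4b1 was found in 36.9% and 45.0% of the Adra2a-positive cells, against 20.6% and 17.6% of all. Sema3g was found in 18.9% and 12.6% of Adra2a-positive cells, close to its 14.7% and 11.9% among all gated cells. These co-detection shares are descriptions over cells of 2 libraries, and deeper cells show more of every gene.

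Panel A genes were not absent from members. Cytl1, a cytokine-like secreted protein, was detected in 97.6% and 97.6% of members and 97.7% and 97.9% of panel A endothelial cells, Bmp6 in 39.3% and 36.5% of members and Clec1a in 27.98% and 23.8%. Emcn was found in 2.38% and 7.94% of members and 52.9% and 47.5% of panel A endothelial cells, and Isl1 in 1.79% and 3.17% and 38.4% and 38.96%. Just 1 member had no panel A gene at all.

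Members showed 2 panel B genes in 61 cells, 3 in 95, 4 in 103, 5 in 32 and all 6 in 3. No gap separated them from the rest of the gated cells: 92 and 70 cells stood just outside with 2 or more genes of each panel in equal number. Cldn5 stood at 1142 and 1272 CPM in members with 2 panel B genes, 1916 and 1713 in those with 4 or more and 1054 and 1201 in the level cells just outside. Ly6c1 stood at 819 and 1231, 1926 and 1878 and 667 and 899.6 CPM in the same order. For both genes the level cells lay below members with 2 panel B genes in each aorta, and above all panel A endothelial cells together (448 and 587 CPM for Cldn5 and 339 and 455 for Ly6c1). Cells level at 1 gene of each panel, 35 and 37 of them, did not follow this order: they held 867 and 1496 CPM of Cldn5 and 690.4 and 1933 of Ly6c1, in aorta 2 more than members with 2 panel B genes.

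**Figure D2:**
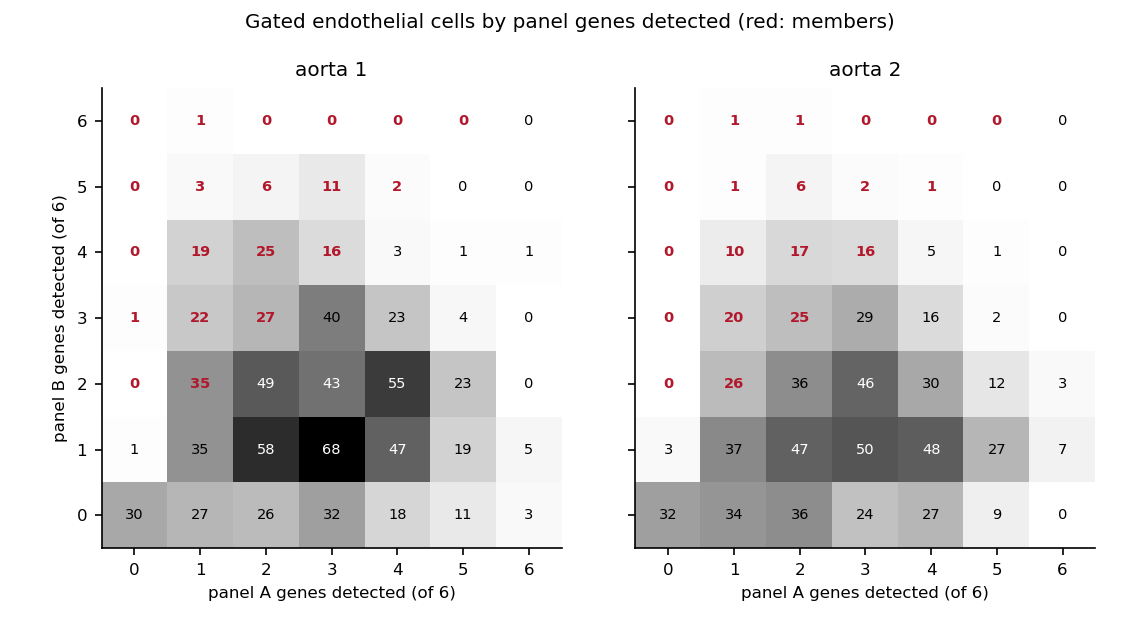
Number of gated endothelial cells by the number of panel A genes (horizontal axis) and panel B genes (vertical axis) detected, aorta 1 left and aorta 2 right; darker squares hold more cells and red numbers are members. Members form a continuous edge of the distribution, with 35 and 26 of them at the lowest square allowed (2 panel B genes and 1 panel A gene).

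Of the gated endothelial cells, 21.3% were members in aorta 1, with an exact binomial 95% interval from 18.5 to 24.3, and 18.3% in aorta 2, with one from 15.5 to 21.4. This gave a mean of 19.8% ± 2.07 (SD, n = 2 aortas). They were 2.49% and 2.68% of all filtered cells. The share depends on the rule and on depth: with the panels counted on cells thinned to 1000 UMIs it was 12.7% and 14.0%, and in cells of 5000 to 25000 UMIs 19.9% and 12.1%. The 2 libraries shared 10 barcodes, none of them a member. Scrublet called 8 and 3 members as doublets (4.76% and 2.38%).

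The endothelial label was checked on 19 identity genes that neither the gate nor the panels used. Of these, 18 were higher in members than in the SMC gate and 18 than in the fibroblast gate when a gene counts as called with an adjusted p below 0.05 and more than a 2-fold difference, a log2 fold change beyond 1 in either direction (edgeR quasi-likelihood test on sums per aorta, n = 2 aortas). Over all genes tested 12.8% were called higher and 14.4% lower against the SMC gate, and 12.1% higher and 13.8% lower against the fibroblast gate. These shares are the background for each list counted below against these gates. The list's median log2 fold change was 8.36 against SMCs and 6.95 against fibroblasts, beside -0.12 and -0.03 over all genes tested. Vwf, von Willebrand factor, stood at 1141 and 1268 CPM in members and 2.48 and 3.29 in SMCs (log2 fold change 8.47 ± 0.15, adjusted p = 2.8e-16). Ptprb, the vascular endothelial tyrosine phosphatase, stood at 2188 and 2422 and 3.36 and 4.23 (log2 fold change 9.01 ± 0.14, adjusted p = 1.3e-16). Cd34 did not separate members from fibroblasts in the same direction: 482 and 442 CPM against 956 and 1149.9 (log2 fold change -1.30 ± 0.14, adjusted p = 1.2e-06). Erg, an endothelial transcription factor, was not called against SMCs, which held 42.5 and 46.1 CPM of it and members 79.2 and 105.

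Transcripts of other cells were also present in members. The summed level of 10 SMC markers was 6194 and 4479 CPM in members, 54478 and 53270 in the SMC gate, 20214 and 18677 in other gated endothelial cells and 736 and 630.1 in the fibroblast gate. Acta2, smooth muscle actin, was concentrated in members with few panel B genes (7335 and 5978 CPM with 2 panel B genes, 1149 and 1254 with 4 or more). Of members, 35.7% and 20.6% had at least 1 UMI of Myh11, Cnn1 or Lmod1. Of 10 fibroblast markers the one at 0 in each aorta was Pdgfra, which the gate sets to 0, and the sum of all 10 was 1747 and 1190.4 CPM, against 56426 and 59639 in the fibroblast gate. Of the lymphatic markers, Prox1 and Mmrn1 are set to 0 by the gate. Lyve1 stood at 6.60 and 4.56 CPM against 4002 and 4139 in lymphatic endothelial cells. Flt4, with 32 UMIs in members, was called higher than in the SMC and fibroblast gates, and Pdpn was called lower than in fibroblasts. All 6 adipocyte markers were at 0, and 6 and 7 of 12 leukocyte markers were at 0, a count that includes Ptprc, which the gate sets to 0. The part of these transcripts in any difference below was not tested, apart from the fit without members that held an SMC gate UMI.

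Most members carried the unrecombined reporter. After thinning to 1000 UMIs, tdTomato was found in 72.6% and 72.2% of members and in 3.14% and 4.13% of SMC gate cells. eGFP was found in 17.3% and 14.3% of members, 94.3% and 92.0% of SMC gate cells and 6.31% and 3.54% of lymphocyte-gate cells. Unthinned, eGFP was found in 35.1% and 30.2% of members. The eGFP share of members exceeded that of lymphocytes and was close to that of panel A endothelial cells (15.8% and 19.5%).

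Most arterial genes were higher in members than in SMCs. Against SMCs 18 of 24 tested arterial genes were higher in members, none was lower and 6 did not pass, with a median log2 fold change of 2.82. Against fibroblasts 13 were higher and 2 lower, with a median of 1.40.

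Gja5, connexin 40, stood at 232 and 267 CPM in members, 0.240 and 0.470 in SMCs (log2 fold change 9.15 ± 0.28, adjusted p = 8.2e-14) and 0 and 0.748 in fibroblasts, where it had 3 UMIs in all (739-fold with a counting interval of 250.4 to 3604, adjusted p = 5.8e-13). Gja4, connexin 37, stood at 179.6 and 356 CPM against 6.40 and 6.58 in SMCs (log2 fold change 5.04 ± 0.34, adjusted p = 2.8e-09). Both connexins were well above the other cell groups in each aorta, but neither stood apart from panel A endothelial cells (249 and 236 CPM for Gja5 and 185 and 333 for Gja4). Bmx, a cytoplasmic tyrosine kinase of arterial endothelium, stood at 540.03 and 591 CPM against 0.881 and 0.939 in SMCs (log2 fold change 8.98 ± 0.20, adjusted p = 1.7e-15) and 3.18 and 3.99 in fibroblasts (log2 fold change 7.19 ± 0.19, adjusted p = 1.8e-14). Efnb2, the arterial ephrin, stood at 193 and 187 CPM and was lower than in panel A endothelial cells (318 and 271) in both aortas.

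Sox17, the arterial SOX factor, stood at 231 and 312 CPM in members, 111 and 144 in panel A endothelial cells and 0.240 and 0.117 in SMCs (log2 fold change 9.97 ± 0.31, adjusted p = 1.0e-13). Clu, the secreted chaperone clusterin, stood at 3422 and 3022 CPM against 702 and 700.5 in SMCs (log2 fold change 1.95 ± 0.15, adjusted p = 1.1e-08) and 65.9 and 102 in fibroblasts (log2 fold change 5.16 ± 0.17, adjusted p = 4.1e-13). Edn1, which encodes the vasoconstrictor endothelin-1, stood at 342 and 351 CPM against 14.8 and 16.1 in SMCs (log2 fold change 4.24 ± 0.13, adjusted p = 1.2e-13). Mgp and Fbln5 did not pass in either comparison, whereas Ltbp4 was higher in both: Mgp, the calcification inhibitor matrix Gla protein, stood at 11629.9 and 12148 CPM in members, 6569 and 7467 in SMCs and 12919 and 9864 in fibroblasts. Fbln5, an elastic fiber protein, stood at 1136 and 1519, 619 and 732 and 988 and 1070.2 CPM. Cxcl12 was the arterial gene furthest below fibroblasts after Tmem100, at 55.5 and 54.7 CPM against 386 and 437 (log2 fold change -3.01 ± 0.17, adjusted p = 3.4e-10).

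Most genes of the Notch pathway were higher as well. Against SMCs 12 of 16 were higher and 3 lower (median 3.70), and against fibroblasts 11 were higher and 3 lower (median 2.93). The receptors Notch1 and Notch4 were higher in members than in SMCs (222 and 189 CPM against 7.28 and 4.23 for Notch1, log2 fold change 4.86 ± 0.20, adjusted p = 3.2e-12), whereas Notch3, the mural receptor, was lower (3.96 and 0 CPM against 22.01 and 22.3, 8.82-fold with a counting interval of 3.000 to 42.9, adjusted p = 3.8e-05). Of the ligands, Jag1 stood at 246 and 189 CPM against 34.9 and 28.9 in SMCs (log2 fold change 2.54 ± 0.15, adjusted p = 4.1e-10) and Dll1 at 118 and 125 against 1.12 and 0.822 (log2 fold change 6.62 ± 0.27, adjusted p = 3.3e-12). Dll4, the ligand of tip and arterial cells, had 14 and 19 UMIs in members and none in either gate, so that members were higher than SMCs by at least 193-fold, adjusted p = 3.2e-07. The targets Hey2 (115 and 137 CPM against 35.7 and 32.8 in SMCs, log2 fold change 1.60 ± 0.15, adjusted p = 1.1e-07) and Nrarp (63.4 and 50.2 against 1.52 and 1.06, log2 fold change 5.17 ± 0.30, adjusted p = 4.2e-10) were higher, and Heyl, a target of mural cells, was lower (9.24 and 6.84 against 91.9 and 68.7, log2 fold change -3.52 ± 0.48, adjusted p = 1.4e-05).

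Jag2 (ENSMUSG00000002799, chr12:112907819-112929776, minus strand), a Notch ligand, had the largest ratio to panel A endothelial cells among the arterial and Notch genes, 19.7 (95% counting interval 10.9 to 38.6). With panels on cells thinned to 1000 UMIs its ratios were 22.8 and 40.2, and that of Slc6a6 in aorta 1 was larger, 61.0. Jag2 stood at 75.3 and 61.6 CPM in members, 3.47 and 3.67 in panel A endothelial cells, 5.29 and 22.2 in other gated endothelial cells, 1.52 and 2.35 in SMCs (log2 fold change 4.94 ± 0.38, adjusted p = 2.9e-08) and 0 in fibroblasts (at least 212-fold, adjusted p = 1.1e-08). It was detected in 37 and 20 members, with at most 3 and 5 UMIs in a cell, so its level was spread over many cells.

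Most angiogenic genes were higher in members than in SMCs. Against SMCs 20 of 31 were higher and 4 lower (median 2.43), and against fibroblasts 17 were higher and 6 lower (median 1.52). Among the receptors, Tek, the angiopoietin receptor Tie2, stood at 454 and 554 CPM in members against 0.881 and 0.704 in SMCs (log2 fold change 8.96 ± 0.22, adjusted p = 6.6e-15). Flt1, VEGF receptor 1, stood at 221 and 132 against 13.1 and 11.98 (log2 fold change 3.61 ± 0.21, adjusted p = 4.5e-10). Kdr, VEGF receptor 2, was sparse, at 23.8 and 9.12 CPM in 11 and 3 members, although it was higher than in SMCs (log2 fold change 2.77 ± 0.55, adjusted p = 0.00063). The call of Kdr rested on aorta 1: without the aorta 1 member sum its adjusted p was 0.26 against SMCs and 0.28 against fibroblasts. Lymphatic endothelial cells held 408 and 487 CPM of Kdr.

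Among angiogenic ligands, Pdgfb, the mural cell recruiting growth factor, stood at 100.3 and 91.2 CPM against 6.64 and 8.57 in SMCs (log2 fold change 3.44 ± 0.25, adjusted p = 4.9e-09). Vegfc stood at 97.7 and 47.9 CPM in members against 2.80 and 1.88 in SMCs (log2 fold change 4.75 ± 0.31, adjusted p = 1.8e-09) and 43.3 and 36.9 in fibroblasts. Angpt2, the destabilizing angiopoietin of sprouting vessels, was lower in members than in both gates: 1.32 and 2.28 CPM against 48.8 and 53.5 in SMCs (30.3-fold with a counting interval of 8.38 to 251, adjusted p = 9.5e-08) and 46.8 and 59.8 in fibroblasts (31.5-fold with a counting interval of 8.66 to 260.5, adjusted p = 1.7e-07). Vegfd was a fibroblast transcript, at 292 and 397 CPM there and 23.8 and 9.12 in members (log2 fold change -4.34 ± 0.27, adjusted p = 7.6e-10). The tip cell transcripts Esm1 and Apln were near background, with 1 and 1 UMIs of Esm1 and 0 and 0 of Apln in members. Pgf passed against both gates, but its 25 and 3 UMIs lay in 5 and 2 members, 14 of them in 1 cell, and without the aorta 1 member sum its log2 fold change was -0.42 against SMCs and -0.40 against fibroblasts.

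The lipid genes showed no common direction. Of 39 tested, 5 were higher and 8 lower than in SMCs with a median log2 fold change of -0.05, and 11 were higher and 5 lower than in fibroblasts with a median of 0.14. The shares (12.8% higher and 20.5% lower against SMCs) compare with 12.8% and 14.4% of all genes tested, and the 28.2% higher against fibroblasts with 12.1%. Fabp4, the fatty acid binding protein of capillaries and adipocytes, stood at 271 and 244 CPM in members, 141 and 192 in SMCs (log2 fold change 0.39 ± 0.31, adjusted p = 0.34) and 17.1 and 27.9 in fibroblasts (log2 fold change 3.43 ± 0.37, adjusted p = 1.0e-06). It was found in 20 and 12 members with up to 65 and 40 UMIs in 1 cell. Other gated endothelial cells held more, 654 and 1417 CPM.

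Cd36, the fatty acid translocase, had 19.8 and 4.56 CPM in 6 and 1 members and did not pass against SMCs (log2 fold change 1.75 ± 0.85, adjusted p = 0.11). It passed against fibroblasts (log2 fold change 2.95 ± 1.03, adjusted p = 0.032), but not without the aorta 1 member sum (adjusted p = 0.75) nor under 5 other choices of cells, among them at least 3 panel B genes (log2 fold change 1.17, adjusted p = 0.62) and thinned panels (log2 fold change 0.71, adjusted p = 0.83). Gpihbp1, the capillary anchor of lipoprotein lipase, was found in 1 cell of each aorta (8 and 4 UMIs), so its calls rest on these cells, and they ended when 3 panel B genes were required. Tcf15 and Meox2, which drive fatty acid transport in capillaries, stood at 5.28 and 2.28 and at 2.64 and 2.28 CPM. Lpl, lipoprotein lipase, was a fibroblast transcript in this wall, at 482 and 461 CPM against 11.9 and 4.56 in members (log2 fold change -5.79 ± 0.32, adjusted p = 1.7e-10). Vldlr was lower in members than in SMCs (7.92 and 13.7 CPM against 94.5 and 86.1, log2 fold change -3.41 ± 0.32, adjusted p = 1.7e-07), and so was Acsl1, an acyl-CoA synthetase (3.96 and 4.56 against 49.8 and 56.1, log2 fold change -3.89 ± 0.39, adjusted p = 3.5e-07).

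Caveolar genes, which the lipid list also holds, were among the 11 that were higher than in fibroblasts. Cav1 stood at 710.4 and 876 CPM in members against 280.3 and 290.1 in SMCs (log2 fold change 1.22 ± 0.12, adjusted p = 2.6e-07) and 50.6 and 62.8 in fibroblasts (log2 fold change 3.69 ± 0.13, adjusted p = 1.1e-12). Cav2 and Cavin1 were also higher than in fibroblasts (298 and 358 CPM against 21.8 and 19.7 for Cav2, log2 fold change 3.85 ± 0.14, adjusted p = 1.1e-12). Of the genes of mitochondrial fatty acid oxidation, Cpt1a and Acadl did not pass against fibroblasts: Cpt1a stood at 76.6 and 54.7 CPM in members and 76.8 and 69.3 in fibroblasts (log2 fold change -0.22 ± 0.24, adjusted p = 0.53), and Acadl at 108 and 84.4 and 95.5 and 88.3 (log2 fold change -0.01 ± 0.17, adjusted p = 0.97).

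**Figure D3:**
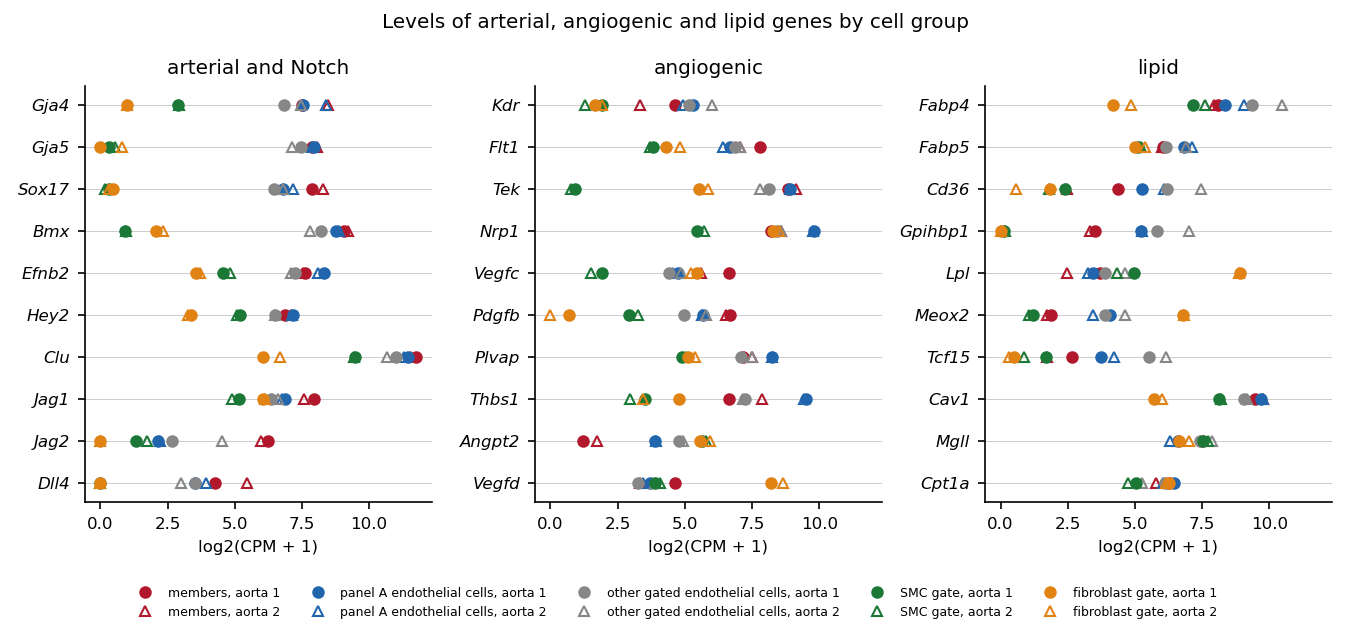
Levels of 10 genes each from the arterial and Notch, angiogenic and lipid lists on a log2(CPM + 1) scale (horizontal axis), by cell group (color) and aorta (filled circle, aorta 1; open triangle, aorta 2). Members lie at the right for Sox17, Jag1 and Jag2, left of panel A endothelial cells for Nrp1, Thbs1 and Angpt2, and left of the other gated endothelial cells for Fabp4, Cd36 and Gpihbp1.

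Genes that sense or answer blood flow were mostly higher in members: 13 of 20 against SMCs and 12 against fibroblasts. Klf2, the flow-responsive transcription factor, stood at 1812 and 1863 CPM against 96.7 and 73.1 in SMCs (log2 fold change 4.18 ± 0.16, adjusted p = 2.3e-12). Nos3, endothelial nitric oxide synthase, stood at 338 and 369 against 0.961 and 1.996 (log2 fold change 7.70 ± 0.22, adjusted p = 2.9e-14). The endothelial potassium channel Kcnn4 stood at 118 and 114 against 0.320 and 0 (log2 fold change 8.78 ± 0.35, adjusted p = 2.5e-12), and Trpv4, a calcium channel, at 73.9 and 75.3 against 0.961 and 0.587 (log2 fold change 6.22 ± 0.29, adjusted p = 1.8e-11). Ptgis, prostacyclin synthase, was lower than in SMCs (483 and 456 CPM against 899 and 1001, log2 fold change -1.26 ± 0.11, adjusted p = 4.0e-08).

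Of the haemostasis and adhesion genes, 14 of 21 were higher than in SMCs and 13 than in fibroblasts. Vcam1, a leukocyte adhesion receptor, stood at 689 and 803 CPM against 14.6 and 27.005 in SMCs (log2 fold change 4.94 ± 0.25, adjusted p = 5.3e-11), and Selp, P-selectin, at 265 and 280.5 against 0.160 and 0.352 (log2 fold change 9.72 ± 0.23, adjusted p = 3.5e-15). Sele passed as well, but its UMIs came from 1 cell of each aorta.

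Of the growth factor and guidance genes, 14 of 32 were higher and 9 lower than in SMCs, and 14 were higher and 11 lower than in fibroblasts. Sema3f stood at 121 and 166 CPM in members against 13.3 and 12.97 in fibroblasts (log2 fold change 3.29 ± 0.18, adjusted p = 2.2e-10). The semaphorin receptors Plxnd1 (170.3 and 159.6 against 8.005 and 7.63 in SMCs, log2 fold change 4.15 ± 0.16, adjusted p = 1.5e-12) and Plxna2 (97.7 and 88.9 against 14.01 and 11.3, log2 fold change 2.63 ± 0.23, adjusted p = 5.7e-08) were higher. The receptors for the Igf2 ligand, Igf1r and Igf2r, did not pass against SMCs, at 68.7 and 59.3 CPM in members and 103 and 100.03 in SMCs for Igf1r and at 69.98 and 50.2 and 56.6 and 53.5 for Igf2r. Matrix genes were lower more often than higher: 13 of 29 against SMCs and 16 against fibroblasts, with 3 higher in each comparison, among them Mmrn2, an endothelial matrix glycoprotein, in both comparisons.

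In the list of 20 transcripts taken from the text of the study, which followed them in SMCs, 12 of 18 tested were lower in members than in SMCs and none was higher. The study chose these transcripts on its own samples, so their direction is not independent evidence. Against fibroblasts 8 were lower and 4 higher. Tgfbr1 stood at 43.6 and 38.8 CPM in members and 81.01 and 87.9 in SMCs (log2 fold change -1.26 ± 0.22, adjusted p = 0.00015), and Tgfbr2, which did not pass the fold threshold, at 91.1 and 91.2 and 43.8 and 48.6 (log2 fold change 0.74 ± 0.15, adjusted p = 0.00076). Of 30 integrin and TGF-β pathway genes 10 were higher and 9 lower than in SMCs (median -0.12), and 12 were higher and 8 lower than in fibroblasts (median 0.60). Among those higher, Bmp4 stood at 578 and 762 CPM against 8.89 and 5.28 in SMCs (log2 fold change 6.25 ± 0.19, adjusted p = 1.1e-13), and Itgb4, the β4 integrin of laminin binding, at 153 and 162 against 0.560 and 0.117 (log2 fold change 8.32 ± 0.26, adjusted p = 1.4e-13).

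**Figure D4:**
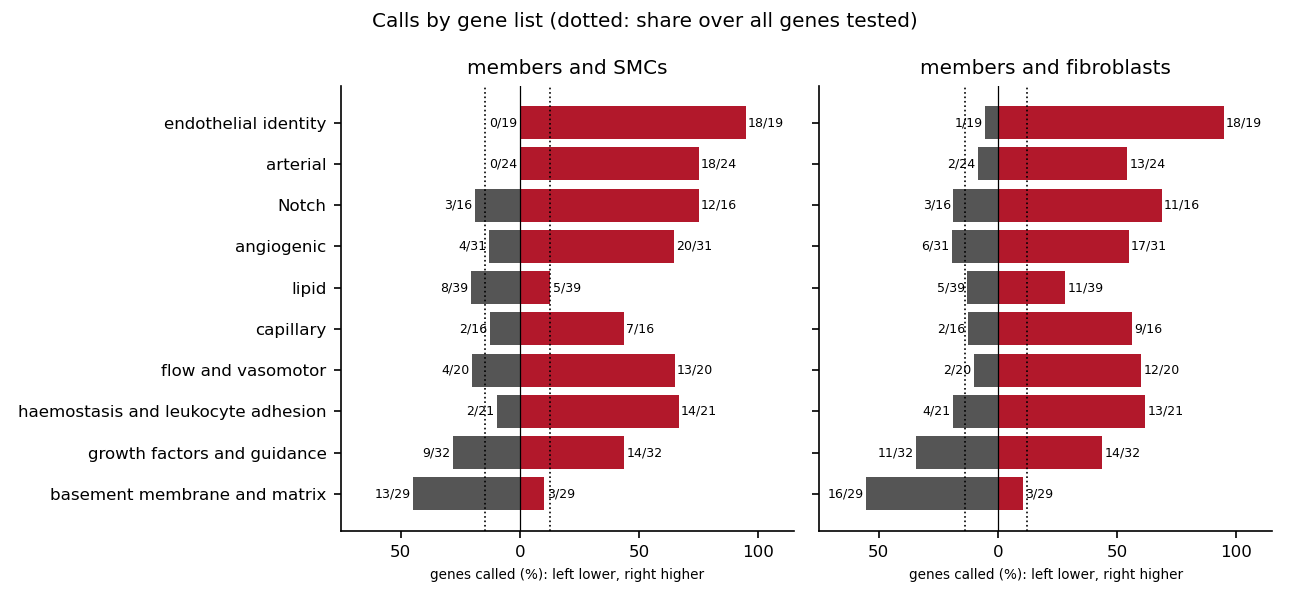
Share of each gene list called higher (red, right) or lower (grey, left) in members than in the SMC gate (left panel) and the fibroblast gate (right panel), in percent of the genes tested, with counts beside the bars. Dotted lines mark the share over all genes tested (12.8% and 14.4% against SMCs, 12.1% and 13.8% against fibroblasts); arterial, Notch and flow genes exceed it on the right and the lipid list lies near it against SMCs.

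Capillary and venous genes gave a mixed picture. Of 16 capillary genes 7 were higher (43.75%) and 2 lower (12.5%) than in SMCs, beside 12.8% and 14.4% of all genes tested. Against fibroblasts 9 were higher (56.25%) and 2 lower (12.5%), beside 12.1% and 13.8%. Plvap, a diaphragm protein of fenestrae and caveolae, stood at 143 and 178 CPM in members and 28.6 and 32.1 in SMCs (log2 fold change 2.13 ± 0.16, adjusted p = 1.4e-08). Btnl9 was also called higher, but on 2 and 1 UMIs in members and none in SMCs, at the limit of detection, so no fold is given. Car4 was called in both comparisons on 3 UMIs in members in all. Gpihbp1, found in 1 cell of each aorta, and Kdr, whose call rested on aorta 1, are also in both counts of higher genes. Of 11 venous and lymphatic genes 5 were higher than in each gate (45.5%). Against SMCs 1 was lower (9.09%, beside 14.4% of all genes tested), and against fibroblasts 3 were lower (27.3%, beside 13.8%). Nr2f2, the venous transcription factor, was lower in both comparisons, for fibroblasts at 6.60 and 0 CPM in members against 389 and 373 (log2 fold change -6.62 ± 0.38, adjusted p = 3.2e-10).

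Outside the lists, the genes with the largest differences from SMCs were transcripts that the SMC gate cells nearly lacked. That gate leaves out cells with an endothelial gate UMI, and the part of this choice in the ratios was not tested. Klk10 (ENSMUSG00000030693, chr7:43781035-43785410, plus strand), a kallikrein-related peptidase, had 252 and 214 CPM in members and 2 UMIs in all SMC gate cells (2503-fold with a counting interval of 687 to 20772, adjusted p = 3.6e-13). Adgrl4, an adhesion receptor of endothelium, had 198 and 196 CPM and 2 UMIs in SMCs (2073-fold with a counting interval of 568 to 17218, adjusted p = 1.9e-13). Adh7, an alcohol dehydrogenase of retinol metabolism, stood at 548 and 673 CPM against 0.480 and 0.470 (log2 fold change 9.97 ± 0.27, adjusted p = 2.7e-14), and Dhh, desert hedgehog, at 135 and 141 against 0.160 and 0 (1441-fold with a counting interval of 392 to 11995, adjusted p = 2.5e-12). Prrt4, Syt7, She, Arhgef15, H2-Q6 and Myct1 completed the 10, at 76.6 and 75.3 CPM for Prrt4 and 263 and 267 for Myct1. H2-Q6 belongs to a family of near-identical class I genes, so its UMIs may be shared among them, and it was not limited to endothelium, at 60.1 and 56.3 CPM in the lymphocyte gate.

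Among the genes furthest below SMCs were Asb2, Rbp4, Igsf9b, Kcnmb1, Kcnj15, Nrtn, Fam13c, Postn and Dact3. Kcnmb1, the smooth muscle subunit of the BK channel, stood at 11.9 and 6.84 CPM in members and 186 and 181 in SMCs (log2 fold change -4.44 ± 0.28, adjusted p = 1.3e-09). Postn, periostin, stood at 55.5 and 52.5 and 899 and 774 (log2 fold change -4.20 ± 0.16, adjusted p = 1.2e-12).

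Against fibroblasts the leading genes were Cyyr1, Ushbp1, Rasgrf2, Plek2, Samd12, Serpina1b, Klk10, Adgrl4, Ptprr and Pkn3. Cyyr1 had 95.1 and 86.7 CPM in members and no UMI in 1457 fibroblast gate cells (at least 277-fold, adjusted p = 4.5e-11), and Ptprr, a receptor tyrosine phosphatase, had 168 and 146 CPM and 1 UMI in fibroblasts (1445-fold with a counting interval of 256 to 57379.9, adjusted p = 3.6e-12). The 10 furthest below fibroblasts, Angptl7, Myoc, Srpx, Steap4, Dio2, Serpina3n, Cilp, Apod, Lsamp and Sorcs2, had no UMI in any member. Angptl7 stood at 251 and 213 CPM in fibroblasts (at least 93.4-fold, adjusted p = 5.5e-09) and Myoc at 149 and 101 (at least 51.01-fold, adjusted p = 7.7e-07). Klk10 and Adgrl4 were among the 10 genes in both comparisons. Among the genes named, Gja5, Sox17, Slc6a6, Thbs1, Klk10, Adh7, Dhh, Kcnmb1, Ptprr, Angptl7, Myoc, Nrg1, G0s2, Ahsg, Igf2, Syt7, Asb2, Kcnj15, Fam13c, Samd12, Pkn3, Dio2, Lsamp, Sorcs2, Nebl, Nxpe4, Dcdc2a, Pax9, Gpr182 and Heph overlap an annotated gene on the opposite strand. No source used here says whether counting respected strand, and whether UMIs of such partners entered these counts was not tested. Overlaps were not looked up for every gene.

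Beside panel A endothelial cells, members differed by at least 2-fold in the same direction in both aortas for 233 of 8779 genes with 20 or more UMIs in each aorta. These were 93 higher genes (1.06%) and 140 lower genes (1.59%). No test was made, because both groups were chosen on these cells. With 5000 to 25000 UMIs per cell the count was 140.

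Cldn5, Ly6c1, Ly6a and Podxl were more than 2-fold higher in members in both aortas, whereas the junction genes Esam (ratio 1.03, interval 0.932 to 1.14) and Tjp1 (ratio 1.34, interval 1.14 to 1.57) did not reach 2-fold. Cldn5 (ENSMUSG00000041378, chr16:18776847-18778262, plus strand), the tight junction protein claudin 5, stood at 1648 and 1701 CPM in members, 448 and 587 in panel A endothelial cells and 647 and 654 in other gated endothelial cells. The ratio of members to panel A endothelial cells was 3.27 (95% counting interval 3.07 to 3.49). Ly6c1 (ENSMUSG00000079018, chr15:75044018-75048830, minus strand) stood at 1677 and 1758 CPM against 339 and 455, a ratio of 4.37 (95% counting interval 4.08 to 4.67). Ly6a (ENSMUSG00000075602, chr15:74994877-74998031, minus strand) stood at 2098 and 2616 against 589 and 794, a ratio of 3.36 (95% counting interval 3.18 to 3.55). Both are GPI-anchored surface proteins of the Ly6 family, whose close copies may share reads. They were not particular to members in the wall, since fibroblasts held 415 and 578 CPM of Ly6c1 and 1362 and 1867 of Ly6a. Podxl, the apical sialomucin podocalyxin, stood at 564 and 529 CPM against 176 and 167, a ratio of 3.20 (95% counting interval 2.87 to 3.58).

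The ratio of Cldn5 was 2.69 or more in each aorta under every other choice of cells tried. Outside the genes of the rule, those with the largest ratios were Gap43, Jag2, Nr4a2, Slc6a6, Nebl, Pthlh, Hba-a1, Nxpe4, Hbegf and Hba-a2. Pthlh (ENSMUSG00000048776, chr6:147252101-147264183, minus strand), parathyroid hormone-related protein, stood at 218 and 169 CPM in 59 and 34 members against 38.2 and 22.03 in panel A endothelial cells, a ratio of 6.46 (95% counting interval 5.14 to 8.15). Hbegf, a heparin-binding epidermal growth factor, stood at 64.7 and 59.3 against 14.4 and 7.95, a ratio of 5.45 (95% counting interval 3.69 to 8.15). Nr4a2, an immediate early nuclear receptor, stood at 81.9 and 45.6 against 10.9 and 2.45. Gap43 (ENSMUSG00000047261, chr16:42248442-42340651, minus strand), a growth cone protein, had the highest ratio, 30.01 (95% counting interval 12.998 to 85.1), but was found in 7 and 4 members.

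Slc6a6, the taurine transporter, was likewise carried by few cells: 203 and 137 CPM in 19 and 9 members, with up to 50 and 35 UMIs in 1 cell of each aorta. SMCs held 84.1 and 87.7 CPM of it and fibroblasts 231 and 207, and neither difference was called (log2 fold change 0.79 against SMCs and -0.43 against fibroblasts). Arterial genes that were higher by 2-fold in both aortas were Slc6a6, Sox17, Tsc22d1 and Vegfc, and Nrp1 was lower. Without endothelial cells holding an SMC gate UMI the ratios of Sox17 were 2.38 and 1.90, under 2-fold in aorta 2. Klk10 (ratio 3.05, interval 2.58 to 3.61), Adgrl4 (3.53, interval 2.92 to 4.28) and Ptprr (3.33, interval 2.70 to 4.11) were higher too.

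Outside the genes of the rule, those lower in members were led by Nrg1, G0s2, Ahsg, Dcdc2a, Pax9, Gpr182, Heph, Pxylp1, Lbp and Gdf6. Nrg1, the growth factor neuregulin 1, had no UMI in members and 30.8 and 25.1 CPM in panel A endothelial cells, so panel A endothelial cells were at least 11.2-fold higher against 3 UMIs in members. G0s2, an inhibitor of the lipase Pnpla2, had 1 and 0 UMIs in members and 41.7 and 108 CPM in panel A endothelial cells. Ahsg, fetuin A, stood at 2.64 and 2.28 CPM against 139.9 and 146, a ratio of 0.0176 (95% counting interval 0.00361 to 0.0516). Of 9 fibroblast markers deep enough, Dcn was 2-fold or more lower in both aortas, Serpinf1 was 2-fold or more higher and 7 were neither. Dcn, the proteoglycan decorin, stood at 199 and 52.5 CPM in members against 662 and 721. The sum of the 10 fibroblast markers stood at 1747 and 1190.4 CPM against 2279 and 2639. In the fibroblast gate Lbp stood at 101 and 117 CPM and Heph at 27.99 and 27.7, and Lbp stood at 810.01 and 897 in lymphatic endothelial cells. The part of these transcripts in the differences was not tested.

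Among the angiogenic genes, Thbs1 (ENSMUSG00000040152, chr2:118111876-118127133, plus strand), the angiogenesis inhibitor thrombospondin 1, stood at 97.7 and 235 CPM in members against 733 and 691, a ratio of 0.207 (95% counting interval 0.177 to 0.241), and the 2 member values differed from each other by more than those of panel A endothelial cells. The VEGF co-receptor Nrp1 (ENSMUSG00000025810, chr8:128358604-128503363, plus strand) stood at 290.5 and 376 CPM against 887 and 865, a ratio of 0.367 (95% counting interval 0.329 to 0.408). Angpt2, Nrp2 and Angptl4 were also lower by 2-fold in both aortas, but on 2, 3 and 6 UMIs in members. Their ratios were 0.120 (interval 0.0141 to 0.455), 0.195 (0.0388 to 0.605) and 0.277 (0.0983 to 0.637), so the last 2 intervals include differences under 2-fold. Of the 25 angiogenic genes deep enough, Vegfc alone was higher (ratio 3.26, interval 2.41 to 4.40). Of 30 lipid genes none was higher and 3 were lower, Angptl4, Gpihbp1 (ratio 0.273, interval 0.138 to 0.493) and Tcf15. Tcf15 had 5 UMIs in members (ratio 0.283, interval 0.0882 to 0.701). Of 16 flow genes none passed in either direction, with Klf2 at a ratio of 1.45 (95% counting interval 1.37 to 1.52). Of 20 haemostasis and adhesion genes, 2 were higher (10%), Cldn5 and Cx3cl1, 3 were lower (15%) and 15 were neither. Over all 8779 genes 1.06% were higher and 1.59% lower. The 3 lower genes were Procr, the protein C receptor (ratio 0.371, interval 0.319 to 0.431), F8 (0.137, interval 0.0366 to 0.364) and Tfpi (0.341, interval 0.197 to 0.557).

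**Figure D5:**
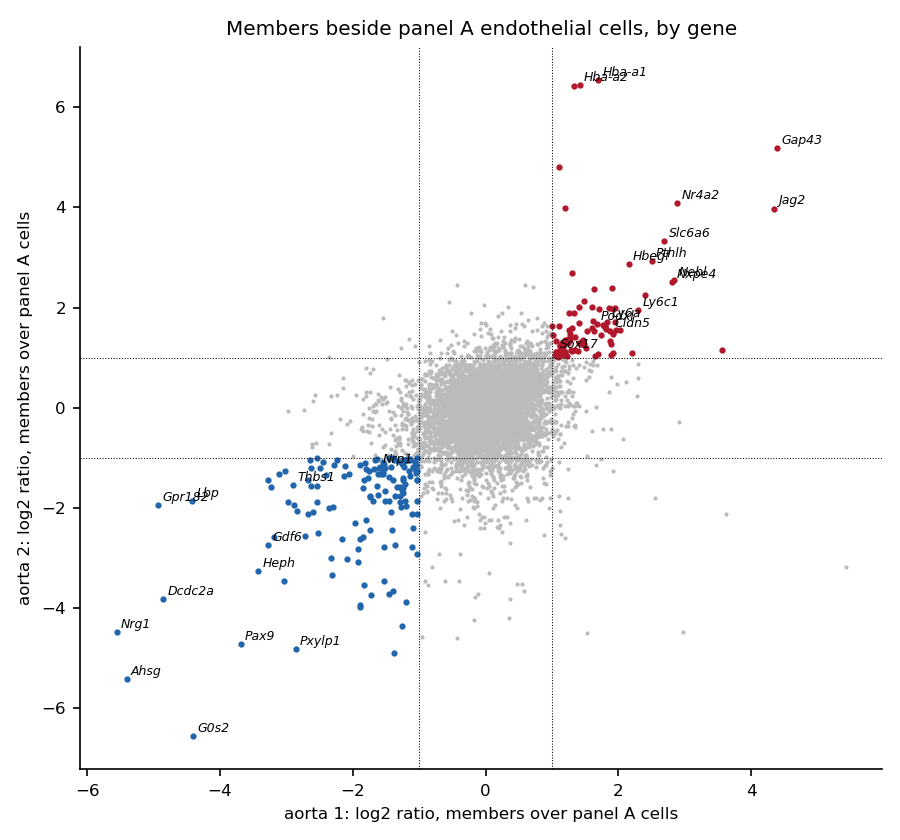
Ratio of members to panel A endothelial cells for each of 8779 genes on a log2 scale, aorta 1 (horizontal axis) against aorta 2 (vertical axis); dotted lines mark 2-fold. Red points (93 genes) were at least 2-fold higher and blue points (140 genes) at least 2-fold lower in both aortas, and the Hba-a1 and Hba-a2 points lie far above the diagonal of the plot.

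Haemoglobin among the leading genes came from a handful of cells. Hba-a1 stood at 1191 and 1633 CPM in members, but 1 member of aorta 1 and 5 of aorta 2 held 3 or more haemoglobin UMIs, and the 5 highest cells held 99.4% and 98.8% of them. The haemoglobin calls therefore rest on these cells. The SMC gate also held 19 and 31 such cells, in which 5 cells carried 91.2% and 92.8% of its haemoglobin UMIs. The ratios of Hba-a1 to panel A endothelial cells, 3.24 and 93.7, were 0.0202 and 1.18 without endothelial cells holding an SMC gate UMI, and those of Hba-a2, 2.68 and 87.1, were 0.0235 and 0.923, so their place among the largest ratios did not hold there. Mesothelial transcripts were uneven in the same way: Upk3b stood at 73.9 and 2.28 CPM, with 38 and 1 UMIs as the most in 1 cell. The number of genes called against SMCs was 3164 with and 3137 without endothelial cells of 3 or more haemoglobin UMIs, a choice made after seeing the data.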

How the data were processed

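Per the labels and the study's methods, cells of 2 thoracic aortas were captured with 10x Genomics Chromium 3′ v3.1 chemistry, and the authors aligned and counted reads with Cell Ranger 4.0.0 against mm10 with the eGFP and tdTomato sequences added. Seurat 4.0 is named in the submitters' processing notes. The deposited matrices hold raw UMI counts (8947 and 6263 cells, 47009780 and 30919996 UMIs). The labels give 6278 and 4300 cells after filtering, whereas the filter used here (over 200 genes, 1000 to 25000 UMIs, mitochondrial share under 10%) left 6744 and 4698. Doublets were called with Scrublet (scanpy 1.11.5) and kept, except in an alternative.

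The members, panels and gene lists were chosen with earlier results of these data known. UMIs were summed per cell group and aorta (10 sums of 5 groups). Members were compared with the SMC gate and the fibroblast gate by edgeR 4.0.16 (R 4.3.3), with TMM scaling, filterByExpr and the quasi-likelihood test fitted on all 10 sums. A gene was called when its Benjamini-Hochberg adjusted p was below 0.05 and its log2 fold change beyond 1 in either direction, and ± is the standard error. With 2 aortas per group, p-values measure the spread between these aortas alone. The scripts were tested on simulated data. Against panel A endothelial cells CPM ratios were formed without a test, with exact 95% Poisson intervals that cover counting error only. A lower bound is set against 3 UMIs over the group.

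Genes were named from the lists, or as the 10 largest fold changes in each direction among called genes outside the panels, gates and lists with at least 50 CPM in both aortas of the higher group and the same direction in both. For panel A endothelial cells they were the 10 largest ratios in each direction (0.5 UMI added) among genes outside the panels and gates with 20 or more UMIs and a ratio of 2 or more in each aorta. Predicted, ribosomal and mitochondrial genes were not named. Some genes that met these rules are not reported here. Groups of the same aorta share an animal, which pairs the sums by design. Over 4584 genes the differences between aortas correlated at 0.08 between members and SMCs and 0.08 between members and fibroblasts. Alternatives were DESeq2 1.42.0, no gene filter, a fit on the groups compared alone, an aorta block, leaving out each member sum, 6 other choices of cells, and, added after seeing the data, removal of endothelial cells with 3 or more haemoglobin UMIs. Promoters are from RefSeq and loci from GENCODE vM21.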

Additional observations from a re-analysis of the deposited data

How the results depend on the processing

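The counts of genes called stayed within 1.5 times of those reported under every alternative, at 2121 to 3459 against 3164 for SMCs and 2287 to 3335 against 3010 for fibroblasts. Leaving out a member sum gave 2631 to 2944 and 2390 to 2785. With aorta as a replicate block, the paired fit called 3177 and 3022 genes. The member share of gated cells, 19.8%, moved to 15.7% with at least 3 panel B genes, 16.0% with 5000 to 25000 UMIs per cell and 13.3% with panels on cells thinned to 1000 UMIs, and was 18.3% and 21.3% in single aortas. With 5000 to 25000 UMIs the genes 2-fold apart from panel A endothelial cells numbered 140 in place of 233.

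Some named genes changed direction, and the cause was not tested. Gpihbp1 had a log2 fold change of -1.98 against SMCs with at least 3 panel B genes. Pgf was at -0.42 against SMCs and -0.40 against fibroblasts without the aorta 1 member sum, and at 1.82 and 1.84 without that of aorta 2. Fabp3 against fibroblasts was at -5.65 without endothelial cells holding an SMC gate UMI and -0.46 with thinned panels. Against SMCs, Hba-a1, Hba-a2 and Hbb-bs were at -3.25, -3.31 and -3.13 without cells holding an SMC gate UMI, -3.18, -3.70 and -3.03 with thinned panels, and -3.57, -3.80 and -3.79 without endothelial cells of 3 or more haemoglobin UMIs. That last choice removed such cells from the endothelial groups alone and left those of the SMC gate, so the lower value is fixed by that choice and is no test of a difference. Alas2 was at -5.06 against SMCs and -2.07 against fibroblasts with thinned panels, and Hbb-bs at -0.12 against fibroblasts under the same one-sided removal. Single genes were followed through these alternatives for 77 called genes against SMCs and 78 against fibroblasts. They were the leading genes outside the lists and the called genes of the arterial, lipid, angiogenic and erythroid (haemoglobin and Alas2) lists. Other named genes, such as Notch1, Klf2 and Selp, were not followed. The rest of those followed kept their direction. Against SMCs, 31 of 987 gene and setting pairs kept the direction but lost the call, and 12 changed direction. Against fibroblasts the numbers were 48 of 999 and 5. Thbs1 in aorta 2 had ratios to panel A endothelial cells of 0.54 with 5000 to 25000 UMIs and 0.51 without cells holding an SMC gate UMI. The ratio of Jag2, 20.4 and 15.8, was 22.8 and 40.2 with thinned panels, and that of Slc6a6, 6.48 and 10.02, was 61.0 and 21.4. In at least 1 aorta the ratios of Ahsg, Fabp4, G0s2, Gap43, Gdf6, Hbegf, Heph, Nr4a2, Nrg1, Pax9, Pthlh, Pxylp1, Thbs1, Hba-a1 and Hba-a2 also moved by over 1.5 times under another choice of cells. Depth limits rare transcripts: 3 UMIs in members stand for 3.96 and 6.84 CPM.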

Other observations

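Stress and cell cycle genes were not part of any comparison above. Of 13 stress genes, 1 was higher (7.69%) and 5 were lower (38.5%) in members than in SMCs, beside 12.8% and 14.4% of all genes tested. Against fibroblasts 2 were higher (15.4%) and none lower, beside 12.1% and 13.8%. Beside panel A endothelial cells, Cdkn1a, a cell cycle inhibitor, was the only one of 11 with enough UMIs to stand 2-fold or more apart in both aortas (173 and 135 CPM in members against 46.6 and 55.7, 3.71 and 2.42 times). Of 10 cell cycle genes, 3 were deep enough to test and none passed in either comparison by edgeR. Median mitochondrial share was 4.50% and 4.12% in members and 5.11% and 5.22% in the SMC gate.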
